A study of Mus musculus with 76 samples.

Results

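A set of 9 genes of the choroid plexus, Ttr, Folr1, Kcne2, Cldn2, Aqp1, Slc4a5, Kl, Otx2 and Calml4, were followed through 76 hippocampal arrays of female mice. They are 9 of the 11807 genes that the probe annotation names and were read by 12 of the 22626 probe sets tested. The genes were chosen by their signals in earlier results of these same arrays, where they varied widely between mice of 1 group, so their spread and their likeness to each other are given as a description, with no test. Mean signal chose the probe set that stands for a gene with more than 1, and the other probe sets are given beside it.

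The arrays came from a study of tau pathology, with 1 array per mouse. The rTg4510 mice carried a transgene for human tau with the P301L mutation under a tetracycline-responsive element, together with the tetracycline transactivator (tTA) driven by the CaMKIIα promoter, which acts in forebrain neurons. The tTA mice carried the transactivator without the tau transgene, and double negative (DN) littermates carried neither. All came from crosses of a tau line on the FVB/N strain with a transactivator line on another strain, so their background is mixed, and mice carrying just the tau transgene were not analysed here. Of the rTg4510 mice, 10 were about 1.9 months old, 10 about 4.7 and 6 about 6.1. There were 10 tTA mice of about 4.7 months, 10 of about 6.1 months and 5 of about 10.7 months, and the DN mice had the same numbers at the same 3 ages. Signals are on a log2 scale, so that a difference of 1 is a 2-fold change, and all values below are log2 signals unless a fold is named. Over all probe sets and arrays the median signal was 5.34 and 10% of values lay below 2.93.

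The choroid plexus is a fold of vascularised tissue that hangs into the brain ventricles and makes cerebrospinal fluid. Its epithelium is one layer of cells bound by leaky tight junctions, which moves ions, bicarbonate, water and vitamins between blood and fluid and secretes carrier proteins. It lies beside the hippocampus in the lateral ventricle and is not a part of the hippocampal tissue itself. Transthyretin is its best known product, and Kl is made by some neurons too.

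RefSeq promoter windows, 250 bases before to 50 after a gene's start on GRCm38.p6, were held for 7 of the 9 genes in 11 windows. Ttr and Folr1 were not matched. Windows of 3 genes are shown, those of Otx2, the transcription factor of the group, and of Kl and Cldn2, the 2 genes that departed from the rest in more than 1 comparison below. Only the 250 bases before the start are printed, 5′ to 3′ on the gene's strand, and capitals mark a motif match, in the Otx2 window as its reverse complement.
Otx2, chr14:48665110-48665359, minus strand: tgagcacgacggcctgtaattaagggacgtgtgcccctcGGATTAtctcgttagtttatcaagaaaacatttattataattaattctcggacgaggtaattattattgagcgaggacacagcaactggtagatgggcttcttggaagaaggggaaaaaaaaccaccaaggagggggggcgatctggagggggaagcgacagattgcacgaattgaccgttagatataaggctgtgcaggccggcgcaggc
Cldn2, chrX:139800558-139800807, plus strand: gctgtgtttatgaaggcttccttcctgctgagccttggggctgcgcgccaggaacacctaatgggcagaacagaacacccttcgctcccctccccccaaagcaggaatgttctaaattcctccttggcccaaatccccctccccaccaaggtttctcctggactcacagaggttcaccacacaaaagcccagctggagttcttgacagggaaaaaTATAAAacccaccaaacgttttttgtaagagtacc
Kl, chr5:150952357-150952606, plus strand: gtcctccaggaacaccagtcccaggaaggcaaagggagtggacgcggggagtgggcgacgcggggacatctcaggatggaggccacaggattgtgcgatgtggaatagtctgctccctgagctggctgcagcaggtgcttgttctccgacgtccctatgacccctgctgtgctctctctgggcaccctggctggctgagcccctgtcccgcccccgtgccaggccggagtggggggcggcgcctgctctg

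In all, 4 motifs were searched on both strands of the whole windows. The core that Otx2 binds, TAATCC, was found in 1 of the 11 windows, that of Otx2 itself, on the opposite strand at position -211 from the start, and in 7.06% of all 32851 promoter windows. The sequence of the TATA element, TATAAA, was found at position -35 in the Cldn2 window and at -192 in another Otx2 window. In the Slc4a5 window it lay at -127 on the opposite strand. Of all windows 13.6% hold it. A forkhead motif, TGTTTAC, which 3.65% of all windows hold, had no match in the 11. Nor had a second form of it, TGTTTGC, which 5.07% hold. The Kl window held none of the 4 motifs.

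Folr1, the folate receptor that carries folate across the epithelium, had the largest spread but 1 within groups of all probe sets, with a pooled within-group SD of 1.89 against a median of 0.132 over all probe sets. In rTg4510 mice of 4.7 months its signal ran from 3.49 through a median of 7.71 to 8.96, and in tTA mice of that age from 3.67 through 4.00 to 8.29. In the 10 DN mice of 4.7 months it ran from 3.11 through 5.11 to 8.63. The groups overlapped over most of the range, and each held mice near the dim end of the scale beside mice far above it. The 5 tTA mice of 10.7 months read 3.40, 3.58, 4.16, 8.26 and 8.29, and the 5 DN mice 3.43, 3.61, 3.68, 4.67 and 7.45. Within a group the highest mouse was 16.2-fold to 45.7-fold above the lowest.

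Folr1 values fell on both sides of an empty stretch, the largest gap between neighbouring mice, from 4.67 to 6.08. Of the 76 mice 29 lay below it and 47 above. Below it were 2 of 10 rTg4510 mice of 1.9 months, 2 of 10 of 4.7 months and 1 of 6 of 6.1 months. It was so for 7 of 10, 3 of 10 and 3 of 5 tTA mice at 4.7, 6.1 and 10.7 months, and 5 of 10, 2 of 10 and 4 of 5 DN mice at those ages. Both sides of the gap thus held mice of every group.

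**Figure D1:**
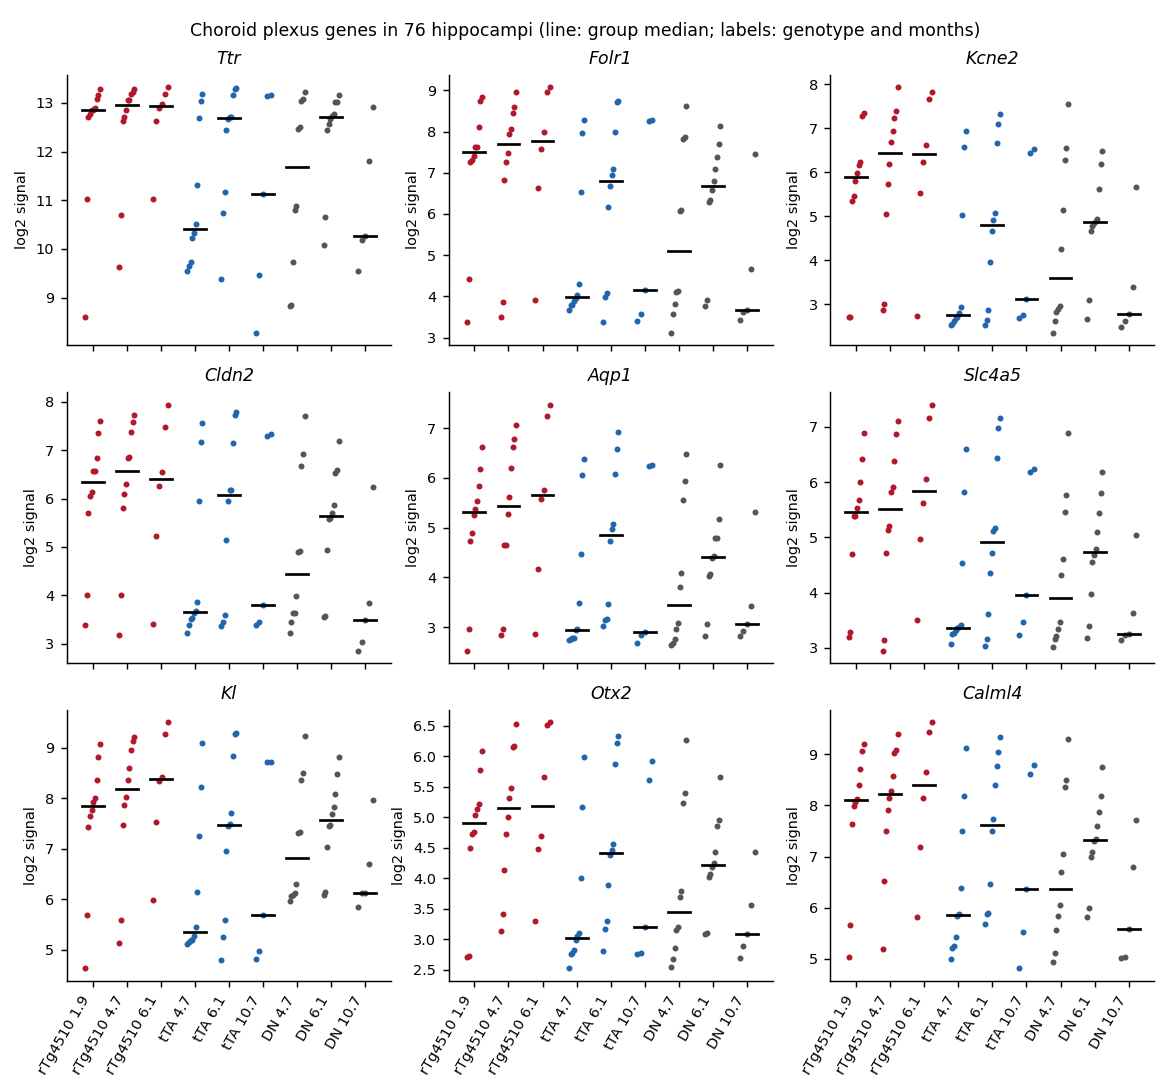
Log2 signal of each of the 9 genes (1 panel each, brightest probe set) in the 9 groups of genotype and age, with 1 point per mouse and a line at the group median. The groups spread over 1.73 to 5.51 log2 units, and the Folr1 panel shows the empty stretch between 4.67 and 6.08.

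The transport genes spread in the same way. Kcne2, a potassium channel subunit of the apical membrane, had a pooled SD of 1.71, rank 3 of all probe sets, and ran from 2.35 to 7.95 over all mice. Its median was 6.44 in rTg4510, 2.75 in tTA and 3.6 in DN mice of 4.7 months, and the lowest mice of these groups read 2.86, 2.53 and 2.35. Aqp1, the water channel of the apical membrane, ran from 2.53 to 7.48 with an SD of 1.43. Slc4a5, a sodium bicarbonate cotransporter, ran from 2.95 to 7.40 with an SD of 1.29. For both, the highest mouse of a group was several-fold above the lowest in all 9 groups, between 5.59-fold and 24.5-fold for Aqp1 and between 3.73-fold and 17.7-fold for Slc4a5.

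Cldn2, the claudin that makes the epithelial junction permeable to cations, ran from 2.86 to 7.95 with an SD of 1.57. Its dimmer probe set covered only 3.21 to 5.23, with an SD of 0.547, and correlated with the brighter one at r = 0.870. Otx2, a homeobox factor needed for choroid plexus development, was the dimmest of the 9, and ran from 2.53 to 6.56 with an SD of 1.17. Calml4, a calmodulin-like protein of brush borders, ran from 4.82 to 9.62 with an SD of 1.37.

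Kl, klotho, a membrane protein that is also shed into the cerebrospinal fluid and serves as a coreceptor for FGF23, ran from 4.63 to 9.50 with an SD of 1.37. Its second probe set stayed between 2.84 and 3.50 in all 76 mice, near the dim end of the scale, with an SD of 0.126, and correlated with the first at r = 0.428. The statements on Kl rest on the brighter probe set.

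Ttr, transthyretin, the carrier of thyroid hormone and retinol-binding protein that the epithelium secretes, was among the brightest probe sets of the array and differed from the rest in shape. It ran from 8.28 to 13.33, the highest value of any probe set on any array. It was the brightest of the 22626 probe sets in 17 mice and among the top 10 in 43, and ranked 3827th where it was lowest. In 30 mice it lay within 0.5 of its highest value. So near the top of the scale of these arrays a signal may have little room to rise. The SD, r, slope and differences of Ttr carry that limit, whose part was not tested. In rTg4510 mice of 4.7 months it ran from 9.63 through a median of 12.95 to 13.29, and in tTA mice of that age from 9.55 through 10.42 to 13.19. Its second probe set followed the first at r = 0.996.

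All 9 genes were in the top 1% of probe sets by within-group SD, a group of 227, at ranks from 2 for Folr1 to 16 for Otx2, with Ecrg4 at rank 1. That is the property they were chosen for. Between the lowest and the highest mouse of a group the difference was 3.32-fold at the least, for Otx2 in DN mice of 10.7 months.

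The same mice were high for all 9 genes. After group means were removed, the 36 gene pairs correlated at r = 0.849 to 0.986 over the 76 mice, with a median of 0.966. The 28 pairs without Ttr lay at 0.945 or above, and Ttr at 0.849 to 0.932, or at a rank correlation of 0.914 to 0.946. In rTg4510 mice of 4.7 months mouse 44 was highest for all 9 genes and mouse 35 lowest for 7. In tTA mice of 4.7 months mouse 63 was highest for all 9, and in DN mice of that age mouse 70. Kendall's W, which is 1 where all genes rank the mice alike, lay between 0.745 in tTA mice of 4.7 months and 0.982 in rTg4510 mice of 4.7 months.

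Since the mice fell on 2 sides of a gap, the correlations were also taken within each side, leaving out a group that had 1 mouse there. Among 46 mice above the gap the 36 pairs correlated at r = 0.915 to 0.985. Among 28 mice below it they lay between 0.117 and 0.834, with a median of 0.430. The split was made on Folr1, itself one of the 9, and left most of them little range below the gap, so the lower values there say little about how the genes go together. The SD of Ttr was 0.967 below the gap and 0.270 above it, while that of Kcne2 was 0.236 below and 0.982 above, and that of Folr1 0.396 below and 0.840 above.

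Per unit of the mean of the other 8 genes, Folr1 rose by 1.35 and Kcne2 by 1.2, Cldn2 by 1.09, Aqp1 by 0.969, Kl by 0.933, Calml4 by 0.916, Ttr by 0.878, Slc4a5 by 0.866 and Otx2 by 0.774. The scatter left around these lines was 0.226 for Kl, the smallest, up to 0.329 for Calml4 and 0.624 for Ttr. These slopes are on the log2 scale of each probe set and do not compare amounts between genes.

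**Figure D2:**
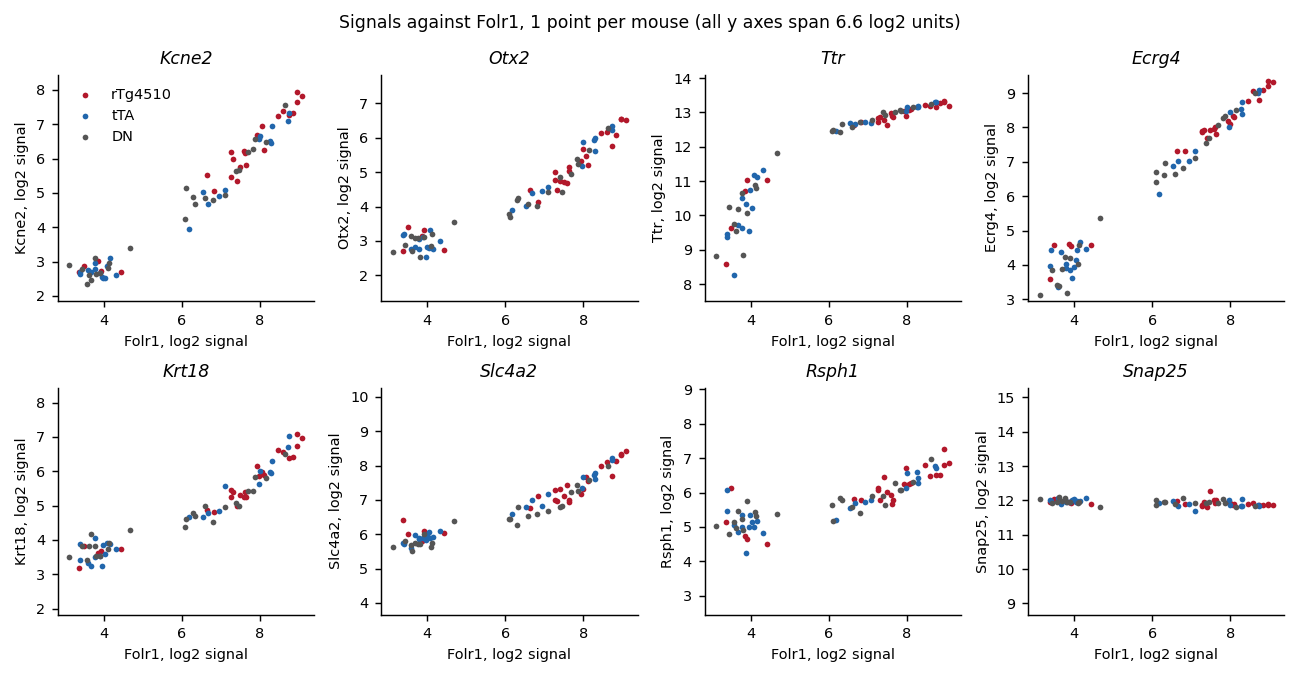
Log2 signal of 8 genes against that of Folr1, with 1 point per mouse coloured by genotype and y axes of equal length. Kcne2, Otx2, Ecrg4, Krt18 and Slc4a2 climb with Folr1 above its gap, Ttr climbs below the gap and flattens near 13 above it, Rsph1 climbs less steeply and Snap25 stays level.

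Other genes of the epithelium followed the 9. A further 47 choroid plexus genes were listed with earlier results of these arrays known, so the shares here are a description. Of the 47, 33 were measured, and 28 of them correlated with the mean of the 9 genes at r = 0.7 or more. The same held for 277 of the 22614 other probe sets (1.22%), which name 202 genes, and the median r over all of them was -0.0534. All 8 measured secreted products did so, from Pcolce at 0.887 up to Ecrg4, an augurin precursor, at r = 0.989, then F5, coagulation factor V, at 0.983, Lbp, lipopolysaccharide-binding protein, at 0.980 and Sostdc1, an antagonist of BMP and Wnt ligands, at 0.977. Ecrg4 ran from 3.12 to 9.37 over the mice, a 76.1-fold range, and its r was 0.989 or more in each of the 9 groups.

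Of 10 measured transport genes, 8 reached 0.7. The anion exchanger Slc4a2 stood at 0.969, the carbonic anhydrases Car12 and Car14 at 0.935 and 0.929, the retinoid flippase Abca4 at 0.906, the calcium channel Trpv4 at 0.9, the copper transporter Slc31a1 at 0.892, the cotransporter Slc12a2 at 0.856 and Slc29a4 at 0.842. Slc4a10, a sodium bicarbonate transporter that neurons also make, stood at 0.564 and the iodide transporter Slc5a5 at 0.020, with a 1.79-fold range over all mice. Of 6 junction and epithelial genes 5 reached 0.7, with keratins Krt18 at 0.975 and Krt8 at 0.914, the protease inhibitor Spint2 at 0.947, Perp at 0.904 and Cldn1 at 0.891, while Cldn3 stood at 0.689. The transcription factor Msx1 stood at 0.924 and Lmx1a at 0.461. The retinol receptor Stra6 stood at 0.809 and the serotonin receptor Htr2c, which hippocampal neurons carry too, at 0.621.

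The 15 genes of highest r outside the 9 also held Rdh5, a retinol dehydrogenase, at 0.978, Col9a3 at 0.965, Steap1, a metalloreductase, at 0.963, Cox8b, a subunit of cytochrome c oxidase, at 0.959, Col8a1 at 0.953, Mdfic at 0.949, the cell cycle inhibitor Cdkn1c at 0.944 and Igfbp2, a carrier of insulin-like growth factors, at 0.939. Above the Folr1 gap the 15 kept r = 0.912 to 0.985, and below it their r ran from -0.230 for Spint2 to 0.899 for Ecrg4. Of the 277 probe sets, 221 had r of 0.7 or more among the mice above the gap and 8 among those below. Below the gap the SD of 14 of the 15 was smaller than above it.

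No probe set fell as the 9 genes rose with r of -0.7 or below. The 8 genes of lowest r were Trim44 at -0.581, the AMPA receptor subunit Gria3 at -0.568, Fut8 at -0.546, Ino80c at -0.541, Nfyb at -0.534, Ccsap at -0.533, Zfp90 at -0.529 and Matk at -0.526. Below the gap Fut8 stood at 0.546 and Ino80c at 0.0305, against -0.514 and -0.531 above it. The rest of the 8 were negative on both sides. The slopes of the 8 over all mice were small. Gria3 fell by 0.057 and Trim44 by 0.023 per unit of the mean of the 9 genes, against a rise of 1.31 for Ecrg4.

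Markers of the other cells that border the ventricle or could come with the tissue were set beside the 9 genes. The ciliated ependyma, which lines the ventricle, followed with r = 0.808 for the mean of its 8 measured genes of 18 listed, rho = 0.788, and r = 0.817 above the Folr1 gap and 0.205 below it. Its genes ran from Rsph1, a radial spoke protein of cilia, at 0.855 to Rarres2 at 0.467, and its slope was 0.177 per unit of the 9 genes against 0.461 for the other choroid plexus list, whose mean stood at r = 0.984. Genes of stroma and meninges stood at 0.438 over 14 genes, and at 0.109 above the gap and 0.437 below. Igf2, made by meninges and choroid plexus, was the only one of the 14 at 0.7 or more, at 0.899, and Col6a1 was lowest at -0.145. The 3 measured striatal genes stood at 0.454, through Ppp1r1b at 0.863, with Drd2 at -0.271.

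The lists of 4 neuronal groups had negative r with shallow slopes. Synaptic genes stood at r = -0.524 (Shank3 at -0.0668 to Snap25 at -0.409), interneuron genes at -0.435 (Pvalb at -0.135 to Reln at -0.429), hippocampal excitatory genes at -0.419 (Neurod6 at -0.149 to Prox1 at -0.332) and neocortical genes at -0.298 (Scnn1a at -0.0326 to Lamp5 at -0.314). Their slopes lay between -0.0346 and -0.0137. Lists of the other cells lay between -0.0155 and 0.216. These were endothelium at 0.149 (Kdr at 0.567, Ly6c1 at -0.238), mural cells at -0.0155 (Kcnj8 at 0.238, Acta2 at -0.0566), border macrophages at 0.0917 (Pf4 at 0.224, Lyve1 at -0.155), microglia at 0.0437 (Gpr34 at 0.133, C1qc at -0.0527) and activated microglia at 0.0770 (Cd74 at 0.315, Itgax at -0.104). The same range held astrocytes at 0.0235 (Sox9 at 0.379, Slc1a2 at -0.271), oligodendrocytes at 0.2 (Ugt8a at 0.298, Cldn11 at 0.0266), thalamus and habenula at -0.0131 (Tcf7l2 at 0.238, Rgs16 at -0.137) and blood at 0.216 (Hba-a1 at 0.277, Slc4a1 at -0.0737). Below the Folr1 gap 8 of these lists had positive r with the 9 genes, 0.564 for mural cells, 0.532 for oligodendrocytes, 0.485 for microglia, 0.480 for astrocytes, 0.446 for border macrophages, 0.419 for activated microglia, 0.414 for endothelium and 0.361 for blood. Above it the same lists lay between -0.272 for border macrophages and 0.117 for blood. Thalamus and habenula stood at -0.367 below and -0.153 above, and striatum at -0.236 below and 0.458 above. The neuronal lists were negative on both sides. Interneuron genes stood at -0.746 below and -0.399 above, and synaptic genes at -0.496 and -0.310. Neocortical genes stood at -0.381 and -0.218, and hippocampal excitatory genes at -0.338 and -0.562. Below the gap the mean of the 9 genes followed Ttr most closely (r = 0.931), which had the largest SD of the 9 there (0.967). The part of these cells in the values of the 9 genes was not tested.

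RNA quality, taken as the difference between the 3′ and 5′ control probe sets of a transcript, stood at r = 0.175 for Gapdh and 0.0618 for Actb. Below the Folr1 gap the values were 0.266 and 0.404, and above it -0.010 and -0.208. In whole tissue, fewer cells of a type and less RNA per cell cannot be told apart, here and in all values that follow. The part of the amount of choroid plexus tissue in the dissected sample was not tested.

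**Figure D3:**
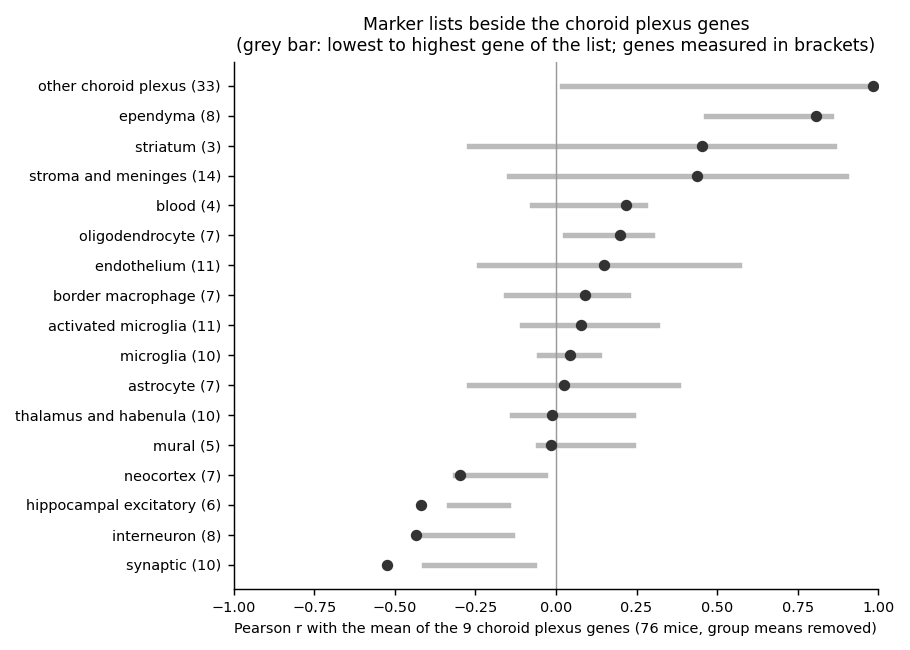
Pearson r of the mean of each marker list with the mean of the 9 choroid plexus genes over 76 mice after group means were removed (points), with grey bars from the lowest to the highest gene of the list. The other choroid plexus list at 0.984 and ependyma at 0.808 stand apart, and the synaptic list at -0.524 is the lowest.

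The study set rTg4510 mice against littermate controls to follow the effects of mutant tau, with tTA mice as the control that shares the transactivator. The DN mice allow tTA mice to be compared with mice free of both transgenes. In the comparison of rTg4510 with tTA mice of 4.7 months, means of all 9 genes were higher in rTg4510 mice, by 1.32 for Slc4a5 to 2.17 for Kcne2, with a median of 1.58, but none passed the test. Kcne2 averaged 5.91 ± 1.77 in the 10 rTg4510 mice (SD) against 3.74 ± 1.75 in the 10 tTA mice. Otx2 averaged 5.01 ± 1.17 and 3.52 ± 1.17, a difference of 1.48 ± 0.50 (SE), which had the lowest adjusted p of the 9 (limma, adjusted p = 0.0673). The adjusted p of the 9 genes ran up to 0.185, for Ttr. Of all 22626 probe sets 7.47% passed in this comparison, with a median difference of -0.0161. Of the 12 probe sets of the 9 genes 10 had an unadjusted p below 0.05, as had 20% of all probe sets. The 9 genes rose and fell together over the same mice, so these 10 are not independent of each other. They do not count as 10 separate results.

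The count of 0 depended on single mice. Without rTg4510 mouse 35, rTg4510 mouse 41 or tTA mouse 63 4 of the 12 probe sets passed, without tTA mouse 65 3 and without DN mouse 70 1. Of all probe sets 7.77%, 7.61%, 7.77%, 7.3% and 8.23% passed in these 5 fits, against 7.47% with every mouse kept. Otx2 passed in all 5 of these fits, with adjusted p from 0.0188 to 0.0445, and Ttr, Cldn2, Aqp1 and Slc4a5 in none. Leaving out rTg4510 mouse 44 instead raised the lowest adjusted p to 0.146. The difference of Kcne2 stayed between 1.95 and 2.53 whichever mouse was left out.

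At 6.1 months the rTg4510 means were again above those of tTA mice for all 9 genes, by 0.49 for Cldn2 to 1.32 for Kcne2, with adjusted p from 0.313 to 0.759, against 12.6% of all probe sets passing. Kcne2 averaged 6.10 ± 1.87 (SD) in the 6 rTg4510 mice and 4.77 ± 1.81 in the 10 tTA mice. Without rTg4510 mouse 75, the lowest of its group for all 9 genes, the Kcne2 difference was 2.00 with limma's adjusted p at 0.0698. The difference between the 6.1 and 4.7 month comparisons was -0.85 as a median over the genes and passed for none, with adjusted p from 0.823 to 0.920. There 0% of all probe sets passed.

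Against DN mice the rTg4510 means were higher for all 9 genes at both ages. At 4.7 months the differences ran from 0.70 for Kl to 1.57 for Folr1, with adjusted p from 0.152 to 0.496, against 13.3% of all probe sets passing. At 6.1 months they ran from 0.37 for Ttr to 1.28 for Kcne2, with adjusted p from 0.266 to 0.734, against 17% of all probe sets passing. These comparisons share the rTg4510 mice with those against tTA mice. Without DN mouse 70 1 of the 12 probe sets passed at 4.7 months, that of Otx2, with limma's adjusted p at 0.0467.

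Between tTA and DN mice none of the 12 probe sets passed at 4.7, 6.1 or 10.7 months, where 3.98%, 5.25% and 0.875% of all probe sets passed. The 9 genes differed by -0.92 to -0.26 at 4.7 months, by -0.24 to 0.34 at 6.1 months and by 0.03 to 1.16 at 10.7 months, and the lowest adjusted p was 0.534. None of the 12 had an unadjusted p below 0.05 in any of the 3. The 95% intervals were wide. For Folr1 at 6.1 months the difference was -0.02, with an interval from -1.53 to 1.48.

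Age gave no call either. Over the 3 ages the lowest adjusted p of the 9 genes by limma's F test was 0.840 in rTg4510, 0.682 in tTA and 0.509 in DN mice, where 2.54%, 0.243% and 0.305% of all probe sets passed. None of the 12 probe sets had an unadjusted p below 0.05 there.

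**Figure D4:**
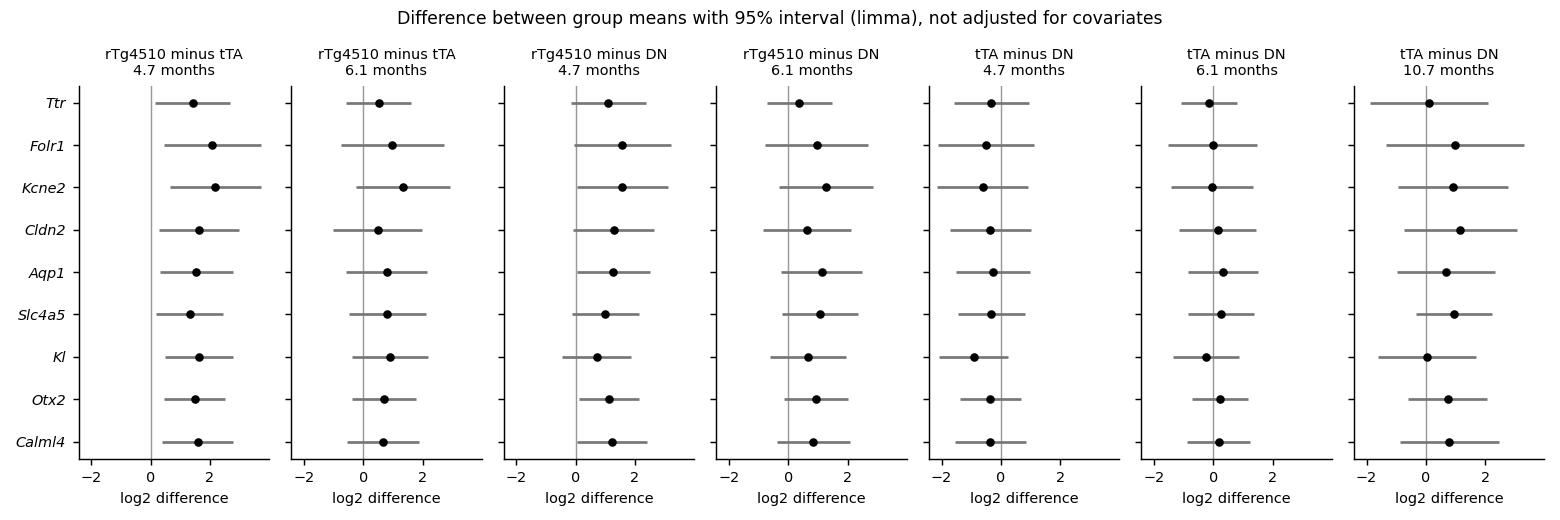
Differences between group means of the 9 genes in log2 units for the 7 genotype comparisons, with 95% intervals from limma (bars). The rTg4510 means lie above 0 in all 4 panels against tTA or DN mice, and the intervals of all 9 genes, not adjusted for the number of probe sets, lie above 0 in the comparison with tTA mice of 4.7 months. The 9 genes move together, so their intervals are not separate results.

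The genes that followed the 9 were set beside all probe sets in the same comparisons. Of the 277 probe sets with r of 0.7 or more, 97 passed against tTA mice at 4.7 months, all higher in rTg4510 mice, which is 35% of them against 7.47% of all probe sets, and their median difference was 0.42. At 6.1 months 34 passed against tTA mice (12.3% against 12.6%), with a median difference of 0.27. Against DN mice 90 passed at 4.7 months, 89 of them higher (32.5% against 13.3%), and 78 at 6.1 months, all higher (28.2% against 17%). The r that picked them was taken after group means were removed. Since all 277 follow the same mean, their calls are not independent of each other, and the shares are a description. Single mice moved these counts by more than 1.5 times. With 1 mouse left out they ran from 55 (without rTg4510 mouse 44) to 172 (without tTA mouse 63) and from 22 (without rTg4510 mouse 7) to 67 (without rTg4510 mouse 75) against tTA mice of 4.7 and 6.1 months. Against DN mice they ran from 60 (without rTg4510 mouse 44) to 144 (without DN mouse 70) and from 43 (without rTg4510 mouse 7) to 128 (without rTg4510 mouse 75).

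Those 277 probe sets include genes that other cells also make. The lowest adjusted p of the 97 belonged to Rnaset2b and Rnaset2a, lysosomal ribonucleases, Ctsc and Ctsl, lysosomal proteases, and Npc2, a lysosomal cholesterol carrier, named here after their values were seen. Rnaset2b rose by 0.67 with limma's adjusted p at 2.59e-05, and by 0.50 when the mean of the 9 genes was a covariate (adjusted p = 0.000254). With this covariate 23 of the 97 still passed at 4.7 months, 8.3% of the 277 beside 3.36% of all probe sets, and the median difference of the 277 went from 0.42 to 0.0834. The 277 were picked for their r with this same mean, so such a fall follows largely from how they were chosen. At 6.1 months 45 then passed higher and 5 lower against tTA mice, 18.1% of the 277 beside 11% of all probe sets. Of the 33 other choroid plexus genes, 3 passed against tTA mice at 4.7 months, Slc12a2, Car12 and Htr2c, higher by 0.40, 1.06 and 0.68, which is 9.09% of the list beside 7.47% of all probe sets. With the covariate 0 of the 33 passed there, and at 6.1 months 0 passed with or without it. The mean of this list stood at r = 0.984 with the covariate, so its loss of calls says little either.

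Activated microglia genes changed little with the covariate. The mean of their list stood at r = 0.0770 with it, so a large change could not be looked for. Of 11 measured, 10 were higher in rTg4510 than in tTA mice at 4.7 months and passed with and without it. Their median difference was 1.71 without and 1.75 with the covariate. Ccl6, a chemokine, differed by 2.53 ± 0.28 (SE) without it and by 2.65 ± 0.31 with it.

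Because the 9 genes moved together, each was also tested with the mean of the other 8 as a covariate, a step added after the data had been seen. It asks whether a gene differed between genotypes beyond what the other 8 did. Of the 84 tests, 12 probe sets in 7 genotype comparisons, 6 passed, with p-values adjusted over all probe sets within a fit and not over the 84. That is 7.14% of them beside a mean of 7.32% of all probe sets over the same fits, so as a group the 9 genes passed about as often as any, and the 6 are given as single values.

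The signal of Kl itself differed by -0.92 and -0.24 between tTA and DN mice of 4.7 and 6.1 months and by 0.70 between rTg4510 and DN mice of 4.7 months, and none of these passed. Set against the other 8 genes it stood lower in all 3. Relative to the other 8 genes it was lower in tTA than in DN mice by 0.57 ± 0.10 (SE) at 4.7 months (limma, adjusted p = 0.000314, 4.11% of all probe sets passing) and by 0.35 ± 0.085 at 6.1 months (adjusted p = 0.0107, 5.98% passing). At 10.7 months the difference was -0.72 ± 0.15, with 5 mice a group (adjusted p = 0.0537, 0.857% passing). The Kl signal itself differed there by 0.03 (limma, adjusted p = 0.997). It was lower by 0.43 ± 0.11 in rTg4510 than in DN mice at 4.7 months (adjusted p = 0.00610, 10.7% passing), and differed by -0.20 ± 0.10 from them at 6.1 months (adjusted p = 0.224). Between rTg4510 and tTA mice it differed by 0.14 ± 0.11 and 0.15 ± 0.10 at 4.7 and 6.1 months, with adjusted p of 0.651 and 0.413. The second Kl probe set, near the dim end in every mouse, showed none of these differences. Relative to the other 8 genes it differed between tTA and DN mice by -0.050, -0.0011 and -0.042 at 4.7, 6.1 and 10.7 months. Between rTg4510 and DN mice of 4.7 months it differed by -0.058, and none of these values passed.

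The lowest Kl mouse of each group shows where the genotypes parted. Its signal was 5.97, 6.09 and 5.84 in DN mice of 4.7, 6.1 and 10.7 months. In tTA mice of those ages it was 5.12, 4.80 and 4.82, and in the rTg4510 groups, from young to old, 4.63, 5.13 and 5.98. At the top the groups met, with highest values of 9.23 in DN, 9.09 in tTA and 9.22 in rTg4510 mice of 4.7 months. The fits gave all genotypes the same slope. The relative differences of Kl are thus averages over this range, and depend on how many low mice a group held. The 10.7 month tTA mice read 4.82, 4.98, 5.69, 8.71 and 8.71 for Kl and the DN mice 5.84, 6.12, 6.12, 6.70 and 7.97.

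Prox1 and Calb1 belong to the hippocampal excitatory list, of which 6 genes were measured. The median over mice of that list's mean was 7.88 in DN, 7.71 in tTA and 7.37 in rTg4510 mice of 4.7 months. At 6.1 months it was 7.91, 7.63 and 7.11, and at 10.7 months 7.84 in DN and 7.75 in tTA mice. These 2 genes, which mark dentate granule neurons, are given singly for tTA against DN mice only. Prox1 has the lowest r of the list, while Calb1 falls outside the rule by which list genes are named. Differences of the other measured genes of the list are not given, so the 2 do not stand for it. Prox1, the defining factor of these neurons, averaged 3.68 ± 0.14 in tTA and 4.42 ± 0.28 in DN mice of 4.7 months (SD, n = 10 each). The difference was -0.73 ± 0.08 (SE, limma, adjusted p = 2.63e-07), and it was -1.07 and -0.80 at 6.1 and 10.7 months. Calb1, a calcium buffer of these and other neurons, differed by -0.23, -0.30 and -0.20 at the 3 ages, which passed at 6.1 months (adjusted p = 0.000518). The part of these neurons in the Kl difference was not tested.

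The other calls of these tests were those of Cldn2 and Kcne2, at 6.1 months. Relative to the other 8 genes Cldn2 was lower in rTg4510 mice than in tTA mice by 0.46 ± 0.10 (SE, limma, adjusted p = 0.00259, 10.9% of all probe sets passing) and than in DN mice by 0.40 ± 0.10 (adjusted p = 0.00709, 14.9% passing). Its dimmer probe set differed by -0.12 ± 0.12 and 0.02 ± 0.12, so the probe sets of this gene disagree. At 4.7 months the brighter one differed by -0.15 ± 0.12 and -0.01 ± 0.12. Kcne2 was higher in rTg4510 than in tTA mice by 0.43 ± 0.12 (adjusted p = 0.0173, 11.2% passing), a call lost without rTg4510 mouse 12 (0.35, adjusted p = 0.0742), and differed by 0.27 ± 0.12 from DN mice (adjusted p = 0.144). These groups hold 6 rTg4510 and 10 tTA and 10 DN mice, and both Cldn2 comparisons share the 6 rTg4510 mice.

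**Figure D5:**
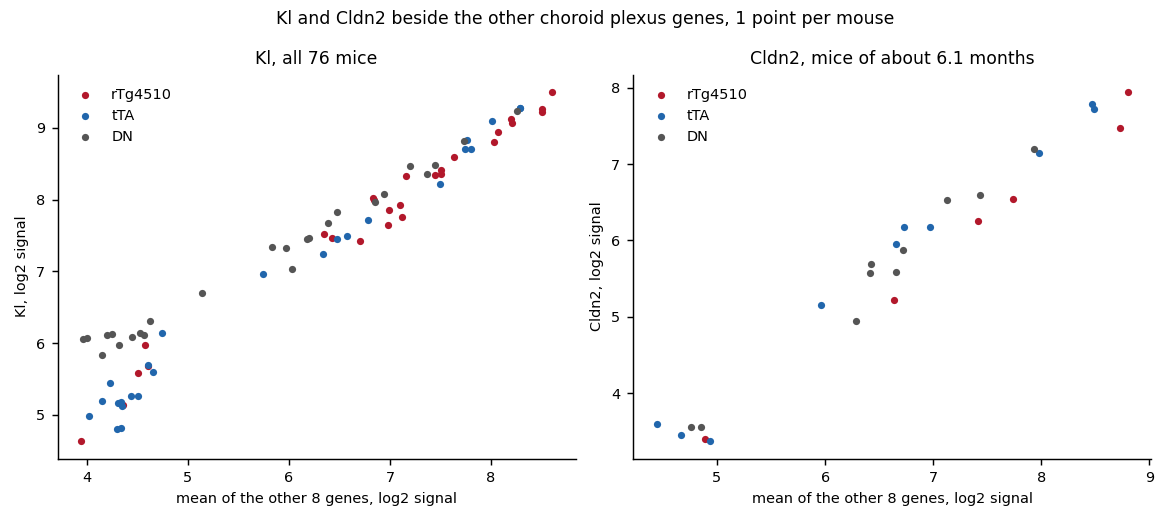
Log2 signal of Kl in all 76 mice (left) and of Cldn2 in the mice of about 6.1 months (right) against the mean of the other 8 genes, with 1 point per mouse coloured by genotype. On the left the DN mice lie above the tTA mice at the low end, where no DN mouse is under 5.84, and the genotypes meet at the high end, and on the right the rTg4510 mice lie below the others at middle and high values.

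At 4.7 months Car4 set DN mice apart from both other genotypes, and Fgf14 differed in mean between rTg4510 and tTA mice. The labels of the other ages are not checked here. Car4 averaged 9.83 ± 0.09 in tTA, 9.70 ± 0.17 in rTg4510 and 8.04 ± 0.08 in DN mice of 4.7 months (SD, n = 10 each), and Fgf14 averaged 5.08 ± 0.19 in rTg4510 against 5.71 ± 0.20 in tTA mice (difference -0.63, limma, adjusted p = 3.91e-06). The Mapt probe set, named for tau, averaged 10.69 and 10.66 in rTg4510 and tTA mice of that age. Whether this probe set of a mouse array reads the human tau transcript was not tested. These means are thus not a measure of the transgene. Array medians lay between 5.24 and 5.39. The study left out 1 outlying tTA array of 6.1 months, and the labels do not tell whether it is among these. Without tTA mouse 21, the array of lowest correlation in that group, none of the 12 probe sets passed at 6.1 months either.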

How the data were processed

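Total RNA of 76 hippocampi was amplified and hybridised by the authors to Affymetrix HT MG-430A arrays, 1 array per mouse. The deposited values are log2 signals, summarised by the authors with RMA, of 22716 probe sets. The methods describe anti-log RMA, but the values span 2.08 to 13.33. Depth does not apply to arrays, and the number of mice limits the precision. The 90 control probe sets were left out of the tests. Of the 22626 others, 18003 carry 1 gene symbol, 287 several and 4336 none here.

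Groups came from the genotype and age labels. Per age, limma 3.58.1 (R 4.3.3) fitted the genotypes present and tested the contrasts. Per genotype its F test covered 3 ages. Calls were at a Benjamini-Hochberg adjusted p below 0.05 over all 22626 probe sets, in 2-sided tests. The mean of the 9 genes used the brightest probe set of each. Likeness was Pearson's r with that mean after group means were removed, taken at 0.7 or more and without a p. The text names all 9 genes, the 15 genes of highest and the 8 of lowest r, the other choroid plexus genes, the extreme genes of each marker list and the genes marking the genotypes. Exceptions are said in place. The members, marker lists and tests were chosen with earlier results of these data known. Mice are separate animals, but the fits do not model litter. Covariate fits and the split at the Folr1 gap were added after the data were seen. The fits and the likeness were tested on simulated data. Alternatives were a model without moderation, the linear scale, the brighter probe sets, arrays centred or quantile-normalised, all groups in 1 fit, and fits that leave out mice.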

Additional observations from a re-analysis of the deposited data

Results flagged for a closer look

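Each of the 9 genes was searched in each of the 9 groups for a mouse far from the rest, and 5 of 81 searches found one. The rate of about 1 in 20 by chance assumes normally spread values, while these mice lay on 2 sides of a gap. The genes also moved together over the same mice, so the searches are not separate. The count is therefore not read against that rate. One mouse stood above the other 4 DN mice of 10.7 months for 3 genes, Aqp1 at 5.31 (next mouse 3.43), Slc4a5 at 5.04 (next 3.64) and Kcne2 at 5.68 (next 3.39), and was highest there for all 9. Ttr was lowest in rTg4510 mouse 82 of 1.9 months, at 8.60 against 11.03 in the next mouse, and in rTg4510 mouse 75 of 6.1 months, at 11.04 against 12.63. Mouse 75 was lowest of its group for all 9 genes and mouse 82 for 8.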

How the results depend on the processing

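No paired analysis was possible because the mouse numbers are unique and no number is shared between groups. With all mice kept, none of the 12 probe sets passed in any of the 10 comparisons under any alternative run. Leaving out each mouse in turn gave 0 to 4 probe sets for rTg4510 minus tTA at 4.7 months, 0 to 1 for rTg4510 minus DN at 4.7 months and 0 in the other 8 comparisons. The sign of each of the 9 genes in the 4 comparisons of rTg4510 mice held under all alternatives run on the log2 scale.

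The count that passed among the followers, the 277 probe sets with r of 0.7 or more, was less stable. For rTg4510 minus tTA at 4.7 months it ran from 55 (without rTg4510 mouse 44) to 172 (without tTA mouse 63), with 150 without rTg4510 mouse 41, 64 without rTg4510 mouse 42, rTg4510 mouse 43 or tTA mouse 60 and 63 without tTA mouse 67, and it was 23 with the mean of the 9 genes as covariate. For rTg4510 minus DN at 4.7 months it ran from 60 to 144 (without DN mouse 70). At 6.1 months it ran from 22 (without rTg4510 mouse 7) to 67 (without rTg4510 mouse 75) against tTA mice, with 55 without the mice numbered 75 and above, and from 43 (without rTg4510 mouse 7; 45 without mouse 10) to 128 (without rTg4510 mouse 75) against DN mice. The causes were not tested.

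Relative to the other 8 genes, the Kl differences between tTA and DN mice at 4.7 and 6.1 months and between rTg4510 and DN mice at 4.7 months, and both Cldn2 differences, passed under every alternative run and without any 1 mouse. At 10.7 months Kl ran from -0.90 to -0.55 with 1 mouse left out, with adjusted p between 0.0146 (without the DN mouse that was highest for all 9 genes) and 0.172 and 1 of 10 fits passing, and passed with the squared covariate (-0.84, adjusted p = 0.0269) and with all 9 groups in the fit (-0.70, adjusted p = 0.000691). Kcne2 at 6.1 months ran from 0.35 to 0.58.

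The number of followers ran from 255 to 297 over the alternatives. Over the 76 mice quantile normalization gave 4 probe sets at r of -0.7 or below where the deposited values gave 0. With group means kept, r was 0.290 for microglia, 0.342 for activated microglia, 0.273 for astrocytes and -0.200 for interneurons. Without the rTg4510 mice of 4.7 months it was 0.315 for activated microglia.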
